A study of Mus musculus with 22 samples.

Results

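Polycomb repressive complex 2 (PRC2) is assembled from a small set of subunits, and 10 of the genes that encode them (Ezh2, Ezh1, Eed, Suz12, Jarid2, Mtf2, Phf19, Aebp2, Rbbp4 and Rbbp7) were followed here in mouse embryonic stem cells (ESCs). They were selected by gene symbol from the 18487 genes of the deposited expression table, as named subunits of the complex. All 10 were found in the table. RNA had been sequenced from the ESC line E14 after exposure to one of 10 compounds that act on chromatin, and from a group labelled NC, with 2 libraries for each of the 11 groups (22 libraries). The compounds were Bromosporine, Chaetocin, CPTH2, DZNep, Garcinol, IOX1, MS023, OICR, UNC0379 and Valproate. NC, whose label names no compound, served for comparison. Dose, exposure time and solvent were missing from the labels of every group, and OICR was given without a full compound name. E14 is a single established line, grown in serum with LIF according to the methods of the study, which describe knockdowns and do not mention the compounds.

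PRC2 places methyl groups on lysine 27 of histone H3 (H3K27me3), a mark of silenced developmental genes in ESCs. EZH2 or EZH1 carries the methyltransferase activity, EED and SUZ12 are required for that activity, and the WD40 proteins RBBP4 and RBBP7 bind histones. The remaining subunits define 2 forms of the complex, one with a Polycomb-like protein (PHF1, MTF2 or PHF19) and one with JARID2 and AEBP2. Several of the compounds act on marks other than H3K27me3. Bromosporine binds bromodomains, Valproate inhibits histone deacetylases, MS023 inhibits type I arginine methyltransferases and UNC0379 inhibits the H4K20 methyltransferase SETD8. DZNep lowers methylation broadly by blocking the hydrolysis of S-adenosylhomocysteine, and is also known for depleting PRC2 proteins in cultured cells. Protein was not measured here.

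The values are normalised read counts per gene, rounded to whole numbers, after a normalization that gave every library the same distribution (median 409, largest value 221616). They carry no sequencing depth, so no counting interval could be given, and different libraries can hold exactly the same value. Compounds were set against NC with limma, fitted to log2(value + 1) over the 17275 genes that reached 10 in at least 2 libraries, and all 10 subunit genes passed this filter and were above 0 in every library. To be called, a gene needed an adjusted p (Benjamini-Hochberg) below 0.05 and a difference of more than 2-fold. Nothing in the labels says that the 2 libraries of a group came from separate cultures, so the p-values measure the spread between these libraries. All 10 markers of ESCs examined (such as Pou5f1, Nanog and Zfp42) were present in every group, and their summed value lay between 178012 and 284402.

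Of the subunit genes, Phf19 and Jarid2 changed with compounds, and no call was made for the other 8. Phf19 fell with DZNep, Valproate, OICR and Bromosporine, and Jarid2 rose with DZNep. DZNep called 2 of the 10 subunit genes, when 11.4% of all tested genes were called with this compound. Valproate called 1 of 10 (5.28% of all tested genes), Bromosporine 1 of 10 (3.34%) and OICR 1 of 10 (0.388%). For MS023 (0.973% of tested genes), IOX1 (0.116%), Chaetocin (0.0174%), CPTH2 (0.00579%), Garcinol (0.00579%) and UNC0379 (0%), limma called 0 of the 10. Phf19 with MS023 was the one change of these compounds with an unadjusted limma p under 0.05. The share of all tested genes at that unadjusted level is not given here. The median log2 change of the 10 subunits was 0.11 with DZNep and 0.01 with Valproate, beside medians of -0.04 and -0.02 over all tested genes. In an F test over the 11 groups with the same adjustment, 2 of the 10 subunit genes passed, again Phf19 (adjusted p 2.76e-05) and Jarid2 (adjusted p 0.000494), against 29.7% of all tested genes. With the replicate number as a block 5 passed, with Suz12 (adjusted p 0.018), Rbbp4 (0.0131) and Rbbp7 (0.0251) added. Suz12 was then called with Valproate. The 29.7% belongs to the fit without the block. The share of all tested genes that passed with it is not given here, so the 5 have no background. The 10 comparisons share the same NC libraries and are therefore not independent of each other.

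**Figure D1:**
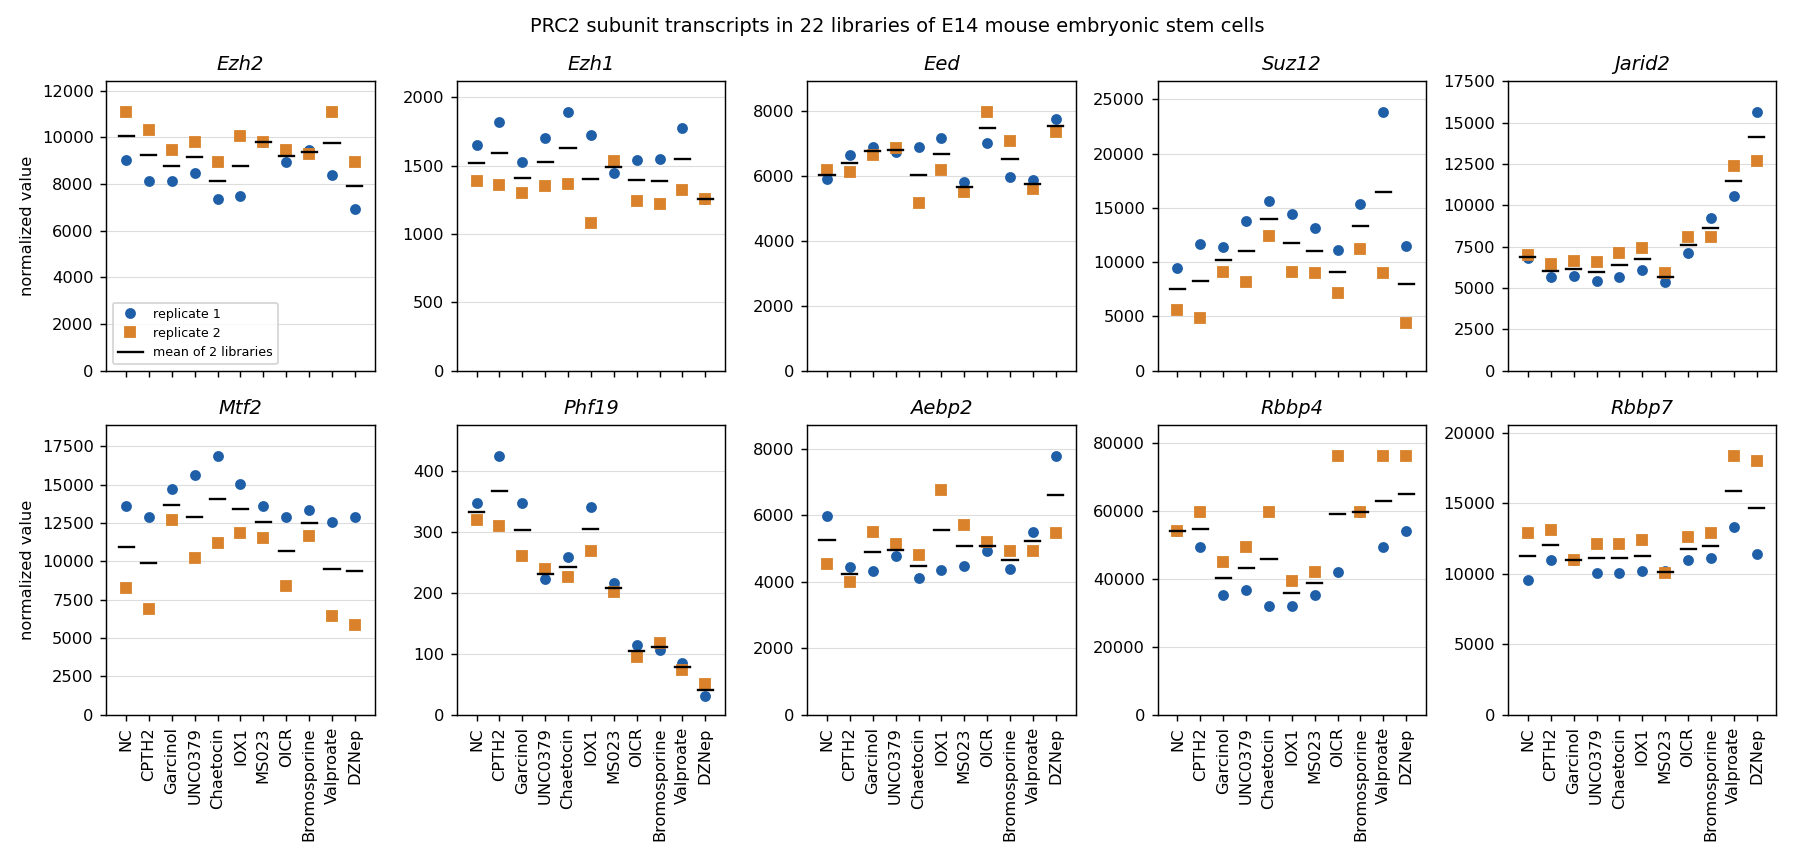
Normalised value (vertical axis, linear from 0) of each PRC2 subunit gene in the 22 libraries, with replicate 1 as blue circles, replicate 2 as orange squares and a black bar for the mean of the 2 libraries. Phf19 ranged from 30 to 425 and Jarid2 from 5378 to 15635, and both libraries of DZNep lay at the low end for Phf19 and at the high end for Jarid2.

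**Figure D2:**
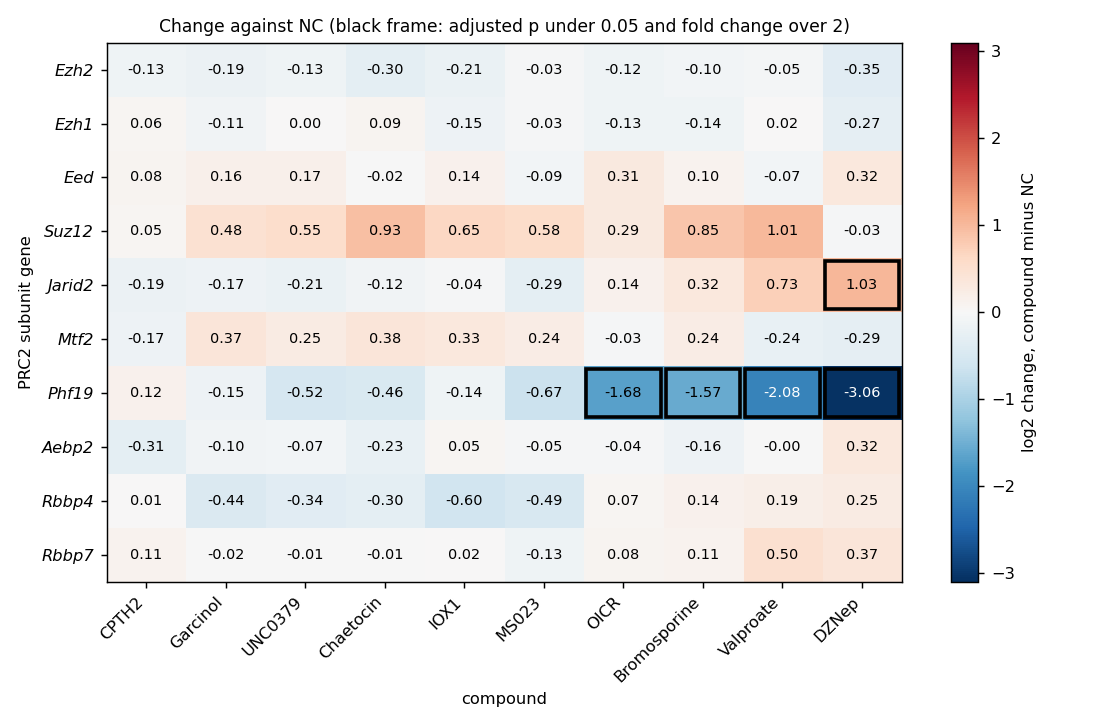
Log2 change of each subunit gene (rows) against NC for each compound (columns), with a black frame around the changes called by limma. The 5 framed cells are Phf19 with OICR, Bromosporine, Valproate and DZNep, and Jarid2 with DZNep.

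The promoters of the subunit genes are shown first for the genes to which the later values refer, the 2 genes that changed (Phf19 and Jarid2) and 2 core subunits that were not called (Suz12 and Ezh2). Each sequence runs 5′ to 3′ along the strand of the gene, from 250 bases before the transcription start to 50 bases after it (RefSeq, GRCm38.p6). Capitals mark the words TTTCCCGC, TTTCGCGC, TTTGCCGC and TTTGGCGC on either strand, which follow the consensus of E2F binding sites and were chosen after the values had been seen. The Phf19 window is chr2:34913927-34914226 on the minus strand, that of Suz12 is chr11:79992856-79993155 on the plus strand, that of Ezh2 is chr6:47594981-47595280 on the minus strand, and that of Jarid2, at the first of its 2 listed starts, is chr13:44730524-44730823 on the plus strand.
Phf19: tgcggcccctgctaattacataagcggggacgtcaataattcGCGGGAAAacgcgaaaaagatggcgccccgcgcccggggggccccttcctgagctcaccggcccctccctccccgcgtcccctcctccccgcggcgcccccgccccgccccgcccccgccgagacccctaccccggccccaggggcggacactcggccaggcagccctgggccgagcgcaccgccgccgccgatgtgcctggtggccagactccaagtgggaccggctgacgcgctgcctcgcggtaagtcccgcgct
Suz12: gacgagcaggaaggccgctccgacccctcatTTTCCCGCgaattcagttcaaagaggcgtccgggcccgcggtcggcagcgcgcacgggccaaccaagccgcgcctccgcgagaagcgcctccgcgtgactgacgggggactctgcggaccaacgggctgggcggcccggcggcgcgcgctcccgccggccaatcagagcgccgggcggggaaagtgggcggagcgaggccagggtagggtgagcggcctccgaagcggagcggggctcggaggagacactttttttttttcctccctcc
Ezh2: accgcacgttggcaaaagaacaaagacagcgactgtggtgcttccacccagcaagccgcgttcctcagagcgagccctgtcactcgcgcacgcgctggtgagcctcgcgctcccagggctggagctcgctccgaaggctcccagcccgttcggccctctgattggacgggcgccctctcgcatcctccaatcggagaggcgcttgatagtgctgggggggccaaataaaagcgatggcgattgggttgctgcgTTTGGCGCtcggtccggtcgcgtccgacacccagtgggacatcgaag
Jarid2: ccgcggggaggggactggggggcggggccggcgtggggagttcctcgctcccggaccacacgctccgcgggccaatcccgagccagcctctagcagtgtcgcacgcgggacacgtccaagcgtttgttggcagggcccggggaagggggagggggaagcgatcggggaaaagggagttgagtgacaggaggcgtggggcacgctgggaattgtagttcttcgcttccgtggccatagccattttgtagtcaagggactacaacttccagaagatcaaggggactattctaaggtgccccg

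An E2F word was found at 3 of the 14 listed starts of the 10 subunit genes, 1 each for Phf19, Suz12 and Ezh2, and at 2.26% of all 32851 listed starts. TTTCCCGC alone was found at 351 of these starts. In Phf19 the word TTTCCCGC lay on the opposite strand and began 208 bases before the start, and in Suz12 the same word lay on the strand of the gene, 219 bases before the start. In Ezh2 the word TTTGGCGC began 3 bases after the start. A matching word is a description of the letters and does not show that a factor binds there. The windows shown are also rich in CG dinucleotides, with 38 in Phf19, 41 in Suz12, 31 in Ezh2 and 24 in Jarid2. The median over all starts was 7. The other listed starts of the subunit genes ran from 2 (second start of Mtf2) to 39 (Rbbp4). Every word searched holds a CG, and the shares were not compared at like CG content, so they do not show an enrichment.

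Ezh2 (ENSMUSG00000029687, chromosome 6, 47530139 to 47595341, minus strand, mm10), which encodes the main methyltransferase of dividing cells, was measured at 9031 and 11077 in NC. With DZNep its values were 6912 and 8923, both under the lower NC library. Ezh2 also lay under that library in both Chaetocin libraries (7355 and 8923, log2 change -0.30). Across the 22 libraries it ranged from 6912 to 11077, with a median of 9158.5. The fitted log2 change lay between -0.35 with DZNep (SE 0.19, limma Benjamini-Hochberg adjusted p 0.200) and -0.03 with MS023. Every compound thus had a fitted value below NC, without a call. With the replicate number in the model, the DZNep change was the same and had a limma adjusted p of 0.0214. It stayed under the fold threshold. Part of an Ezh2 exon overlaps Gm26625 on the opposite strand. Exons of Eed (E230029C05Rik), Suz12 (Gm26563), Mtf2 (Tmed5), Rbbp4 (Gm26722 and Sync) and Rbbp7 (Txlng) also overlap genes on the opposite strand. Reads of such pairs can be told apart only where strand was used in counting, which was not stated.

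Ezh1 (chromosome 11, 101191115 to 101226463, minus strand), the less active methyltransferase that prevails in resting tissues, was measured at 1650 and 1389 in NC. Its lowest group mean was that of DZNep, with libraries at 1257 and 1252, and its highest that of Chaetocin, at 1891 and 1365. Over all libraries it ranged from 1079 to 1891, with a median of 1415.5. The Chaetocin libraries spanned both NC libraries, and those of DZNep lay below them. The log2 change ran from -0.27 with DZNep (limma adjusted p 0.457) to 0.09 with Chaetocin. Divided by the length of the longest transcript, the Ezh2 level exceeded the Ezh1 level in every library, by a ratio of 5.87 at the lowest (Chaetocin replicate 1) and 9.77 at the median, with 8.26 and 12.0 in NC.

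Eed (chromosome 7, 89954654 to 89980983, minus strand) encodes the subunit that binds H3K27me3 and stimulates the enzyme. The NC libraries held 5914 and 6170, the DZNep libraries 7760 and 7344 and the OICR libraries 7005 and 7967. Both libraries of either compound lay above both NC libraries. So did those of Garcinol (6905 and 6637) and UNC0379 (6729 and 6847), while those of MS023 (5803 and 5514) and Valproate (5871 and 5607) lay below. With DZNep and OICR the log2 changes were 0.32 (SE 0.13) and 0.31 (SE 0.13). Their limma Benjamini-Hochberg adjusted p were 0.0916 and 0.402, and neither was called. The lowest change, -0.09, was with MS023, and the 22 libraries ranged from 5165 to 7967. Eed shares 11.3% of the 31-base stretches of its longest transcript with other genes, chiefly E230029C05Rik on the opposite strand.

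Suz12 (chromosome 11, 79993106 to 80034123, plus strand), the scaffold on which the complex is built, had the widest spread of the subunits between libraries of a group, with an SD of 0.61 on the log2 scale. Its NC values were 9432 and 5616, and those with Valproate were 23840 and 9031. The 2 Valproate libraries thus lay on either side of the higher NC library. The log2 change was 1.01 (SE 0.55, 95% confidence interval -0.18 to 2.21), for which limma gave an adjusted p (Benjamini-Hochberg) of 0.281. With the replicate number in the model the change was the same and was called (adjusted p 0.0122). Leaving out single libraries moved it between 0.31 (without Valproate replicate 1) and 1.71 (without Valproate replicate 2). With DZNep, Suz12 was at 11521 and 4421, and its log2 change of -0.03 turned to 0.66 without DZNep replicate 2. Both libraries lay above both NC libraries with Chaetocin (15612 and 12371, log2 change 0.93) and with Bromosporine (15374 and 11215, 0.85), without a call. NC had the lowest group mean of Suz12 among the 11 groups (7524). Against the mean of the other 10 groups, the Valproate change was 0.58 (limma adjusted p 0.357).

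Rbbp4 (chromosome 4, 129307100 to 129335370, minus strand) and Rbbp7 (chromosome X, 162760402 to 162779092, plus strand) encode histone-binding proteins that are also subunits of chromatin assembly and deacetylase complexes. Rbbp4 was at 53954 in both NC libraries, and its changes ran from -0.60 with IOX1 (32065 and 39271, limma adjusted p 0.479) to 0.25 with DZNep (53954 and 76118). Its 22 libraries lay between 32065 and 76118 and held 10 distinct values, a trace of the normalization, which ties the most abundant genes to a few ranks. Rbbp7 was 9540 and 12889 in NC and 13327 and 18342 with Valproate, where both libraries lay above NC. Its log2 change of 0.50 (SE 0.22) had an unadjusted p of 0.0439 and a limma Benjamini-Hochberg adjusted p of 0.192. With the replicate number in the model, the limma adjusted p was 0.0165. For the Rbbp7 change of 0.37 with DZNep it was 0.0399. Both changes stayed under the fold threshold. Of the 31-base stretches of Rbbp7, 21.8% also occur in other genes, chiefly Gm6382, so the assignment of its reads is less certain than that of the other subunits.

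Mtf2 (chromosome 5, 108065674 to 108109004, plus strand), a Polycomb-like protein that helps PRC2 to find CpG islands, was measured at 13614 and 8244 in NC. It ranged from 5847 (DZNep replicate 2) to 16858 (Chaetocin replicate 1). The lowest log2 change was -0.29 with DZNep (12889 and 5847) and the highest 0.38 with Chaetocin (16858 and 11215), with SEs of 0.43. The NC libraries were further apart than these changes. The change with DZNep turned to 0.07 without NC replicate 1 and to 0.28 without DZNep replicate 2. Of the 31-base stretches of Mtf2, 9.58% also occur in other genes, chiefly Tmed5 on the opposite strand.

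Phf19 (ENSMUSG00000026873, protein coding, chromosome 2, 34893757 to 34914026, minus strand, mm10) encodes a Polycomb-like protein whose Tudor domain binds methylated lysine 36 of histone H3. Its exons overlap no other gene, and none of the 31-base stretches of its longest transcript (0%) occur elsewhere. Phf19 values were 347 and 320 in NC and 30 and 51 with DZNep. They were 84 and 73 with Valproate, 114 and 94 with OICR, and 106 and 117 with Bromosporine. These 8 libraries were the 8 lowest of the 22, and none overlapped NC. The next group was MS023, at 216 and 201, followed by UNC0379 at 223 and 240 and Chaetocin at 259 and 226. These also lay below both NC libraries. The libraries of Garcinol (348 and 260), IOX1 (341 and 269) and CPTH2 (425 and 310) overlapped NC.

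DZNep lowered Phf19 by 88.0%, a log2 change of -3.06 (SE 0.25, 95% confidence interval -3.59 to -2.53), for which limma gave an adjusted p (Benjamini-Hochberg) of 6.25e-06. Valproate lowered it by 76.3% (log2 change -2.08, SE 0.25, adjusted p 0.00023). With OICR the log2 change was -1.68 (adjusted p 0.00871), and with Bromosporine it was -1.57 (adjusted p 0.00275), falls of 68.7% and 66.4%. Lower calls made up 6.14% of tested genes with DZNep, 2.55% with Valproate, 0.26% with OICR and 2.77% with Bromosporine. For MS023 the log2 change was -0.67 (SE 0.25), with an unadjusted p of 0.0164 and a limma adjusted p of 0.199, and it was not called. Changes with the other compounds lay between -0.52 (UNC0379) and 0.12 (CPTH2). In bulk RNA, fewer cells that express a gene and less RNA per cell cannot be told apart.

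Within each replicate number, the Phf19 change with DZNep was -3.49 for number 1 and -2.63 for number 2. The changes were -2.03 and -2.12 with Valproate, -1.60 and -1.76 with OICR, and -1.70 and -1.44 with Bromosporine. The call for DZNep was made under 12 of 12 alternatives, with changes between -3.43 and -2.34. When limma was fitted to the compound and NC libraries alone, the calls for Valproate (adjusted p 0.0577), Bromosporine (0.0743) and OICR (0.145) were lost. With the other 10 groups averaged in place of NC, Bromosporine (-0.71) and OICR (-0.82) fell short of the call as well. The OICR call was also lost without NC replicate 1 (-1.62, adjusted p 0.110) and without OICR replicate 2 (-1.54, adjusted p 0.121).

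**Figure D3:**
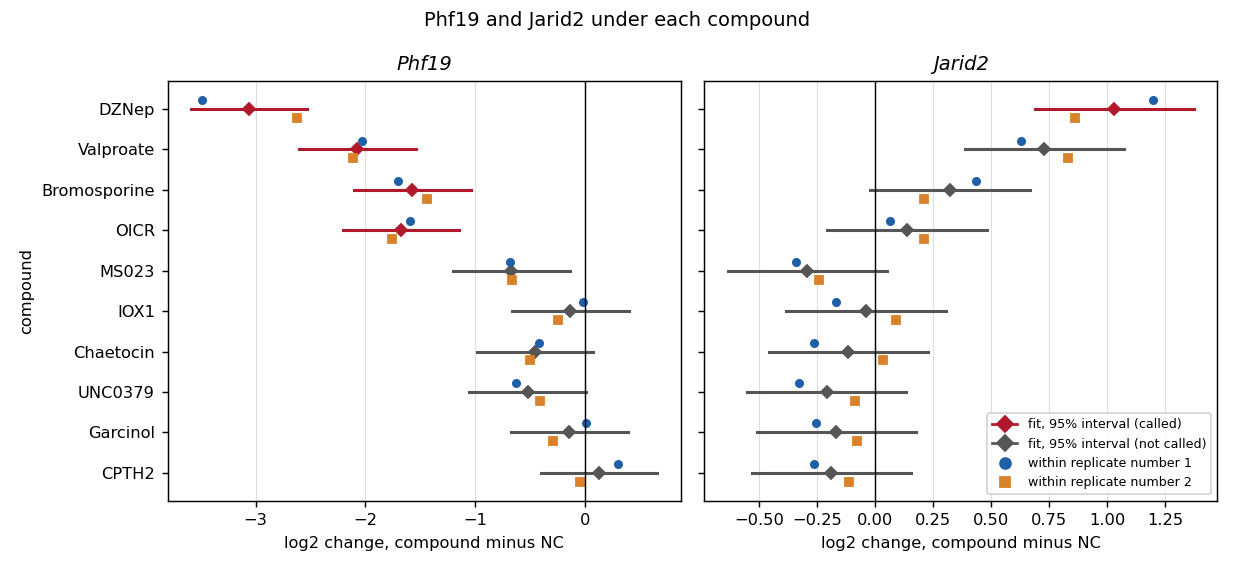
Log2 change against NC (horizontal axis) of Phf19 and Jarid2 for each compound, with the fitted change and its 95% confidence interval as a diamond and bar (red where called) and the changes within replicate numbers 1 and 2 as blue circles and orange squares. For the 4 called falls of Phf19 both numbers lie between -3.49 and -1.44, and for Jarid2 with DZNep they lie at 1.20 and 0.86.

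The groups were also compared with each other, a choice made after the values had been seen. Phf19 was called in 27 of the 55 pairs of groups, and in 23 of the 45 pairs without NC, when 3.86% of all combinations of a tested gene and a pair were called. The log2 difference of DZNep minus Bromosporine was -1.48 (limma adjusted p 0.000652, where 14.8% of tested genes were called) and OICR exceeded DZNep by 1.38 (adjusted p 0.00234, 7.69% called). Valproate exceeded DZNep by 0.98 (95% confidence interval 0.45 to 1.51, adjusted p 0.0118, 10.8% called), which passed the test and stayed under the fold threshold. Valproate and OICR differed by -0.40 (adjusted p 0.33, 6.56% called) and OICR and Bromosporine by -0.10 (95% confidence interval -0.63 to 0.43, adjusted p 0.977, 1.39% called). MS023 exceeded Bromosporine by 0.90 (adjusted p 0.0287, 7% called), again under the fold threshold. In the order of group means from DZNep up to CPTH2, no pair of neighbours was therefore called, and the calls were between groups further apart.

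Jarid2 (ENSMUSG00000038518, protein coding, chromosome 13, 44729474 to 44921643, plus strand) encodes a cofactor with a jumonji domain that lacks demethylase activity and that helps PRC2 to reach its targets. NC libraries held 6806 and 6968, DZNep libraries 15635 and 12673 and Valproate libraries 10533 and 12385. Bromosporine followed with 9208 and 8061, and OICR with 7124 and 8061. Both libraries of these 4 compounds lay above NC. MS023 (5378 and 5883), UNC0379 (5413 and 6551), CPTH2 (5667 and 6436) and Garcinol (5699 and 6602) lay below NC, and Chaetocin (5667 and 7124) and IOX1 (6062 and 7411) overlapped it. DZNep raised Jarid2 2.04-fold, a log2 change of 1.03 (SE 0.16, 95% confidence interval 0.69 to 1.38), for which limma gave an adjusted p (Benjamini-Hochberg) of 0.00051, when 5.27% of tested genes were called as higher. With Valproate the log2 change was 0.73 (SE 0.16, adjusted p 0.0106), and the 1.66-fold difference stayed under the fold threshold. Changes with the other compounds ran from -0.29 (MS023) to 0.32 (Bromosporine), with no call.

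The DZNep call of Jarid2 lay close to the fold threshold. It was lost without DZNep replicate 1, where the change was 0.88 with an adjusted p of 0.00712, and was made under 11 of 12 alternatives. Within replicate numbers 1 and 2 the change was 1.20 and 0.86. In pairs of groups Jarid2 was called 8 times of 55, and 7 of these did not involve NC. DZNep and Valproate differed by -0.30 (95% confidence interval -0.65 to 0.04, limma adjusted p 0.203), and Valproate exceeded MS023 by 1.02 (adjusted p 0.000796, where 8.43% of tested genes were called).

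Aebp2 (chromosome 6, 140622663 to 140678472, plus strand), a zinc finger protein that accompanies JARID2, had values of 5990 and 4545 in NC, and 7786 and 5466 with DZNep. The libraries of both groups overlapped, and all 22 lay between 4005 and 7786. Its log2 change ran from -0.31 with CPTH2 (4448 and 4005) to 0.32 with DZNep (SE 0.22, limma Benjamini-Hochberg adjusted p 0.314). Aebp2 was not called with DZNep, with which Jarid2 rose.

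At an unadjusted limma p under 0.05, the 8 subunit genes without a call reached this level with 2 compounds for Eed and with 1 for Rbbp7. Ezh2, Ezh1, Suz12, Mtf2, Aebp2 and Rbbp4 reached it with 0. The share of all tested genes at this level is not given here, so these counts do not show an excess or a lack. In none of the 55 pairs of groups was one of the 8 called. Their spread sets the size that could be seen in this fit, which leaves out the replicate number. The SE of a log2 change was 0.13 for Eed, 0.19 for Ezh2 and 0.22 for Aebp2 and Rbbp7. It reached 0.33 for Rbbp4, 0.43 for Mtf2 and 0.55 for Suz12. A change of the size of that of Jarid2 thus lay within 2 SEs for Suz12. These SEs hold differences between replicate numbers. With the number in the model, the Suz12 change of 1.01 with Valproate was called (limma adjusted p 0.0122).

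Levels of different subunits were compared after division by the length of the longest annotated transcript. In NC, Rbbp4 had the highest value per kilobase (11571), followed by Rbbp7 (4998), Ezh2 (3607), Eed (2923), Mtf2 (2692), Suz12 (1721), Aebp2 (888), Jarid2 (824) and Ezh1 (361). Phf19 was the lowest, at 89.1. The NC libraries overlapped between the neighbours Eed and Mtf2, Mtf2 and Suz12, and Aebp2 and Jarid2, so the order of these is not settled by 2 libraries. With the mean length of a gene's transcripts in place of the longest, 6 of 10 ranks stayed, and Rbbp4 stayed highest and Phf19 lowest. Transcripts in use were not measured, and the mouse annotation lists from 4 (Rbbp4) to 16 (Jarid2 and Mtf2) for each gene.

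**Figure D4:**
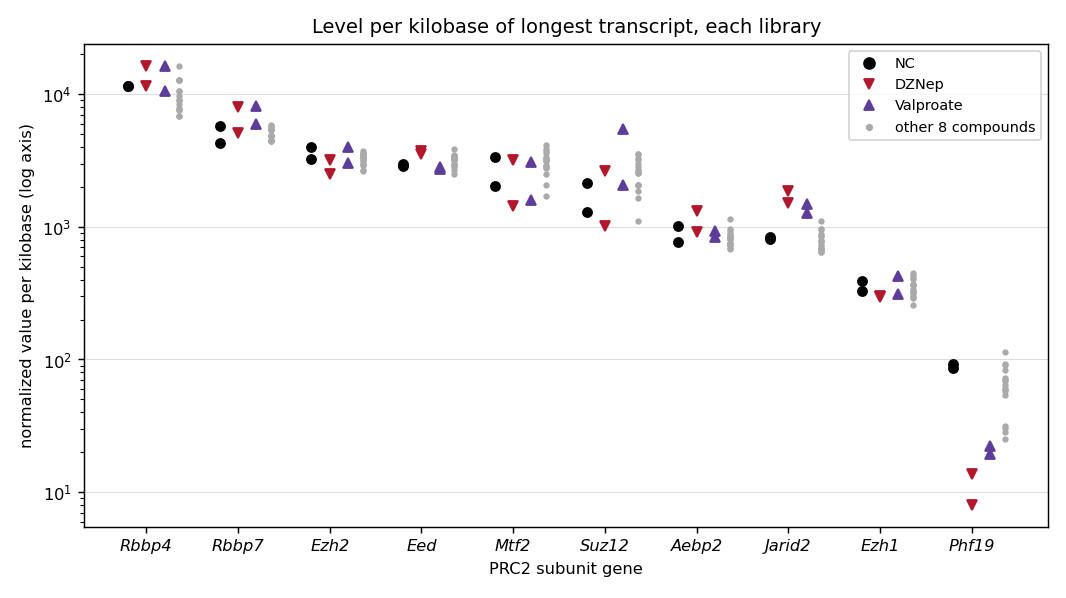
Normalised value per kilobase of the longest transcript (vertical axis, log scale) for each subunit gene, in NC (black), DZNep (red), Valproate (purple) and the other 8 compounds (grey), with 1 point for each library. The genes run from Rbbp4 at 11571 in NC to Phf19 at 89.1, and the DZNep and Valproate points of Phf19 lie below all others of that gene.

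The 3 Polycomb-like genes take the same place in the complex, and their levels per kilobase were therefore summed. Mtf2 made up 86.6% to 94.6% of the sum in every library. Phf19 made up 2.52% and 3.75% in the NC libraries and 0.239% and 0.832% with DZNep. It made up 0.684% and 1.10% with Valproate, 0.884% and 1.09% with OICR, and 0.793% and 1.01% with Bromosporine. Both libraries lay below both NC values with these 4 compounds, and also with Chaetocin, Garcinol, IOX1, MS023 and UNC0379, where the shares were 1.45% to 2.36%. CPTH2 was the exception, at 3.26% and 4.21%. The third gene, Phf1, had values of 724 and 509 in NC and 541 and 579 with DZNep, and was called with no compound. Exons of Phf1 overlap Cuta on the opposite strand, and 34.2% of its 31-base stretches are found in other genes, chiefly Cuta. The Jarid2 level per kilobase divided by that of Mtf2 was 0.243 and 0.411 in NC, 0.590 and 1.05 with DZNep and 0.407 and 0.936 with Valproate. Taken across replicate numbers, the Valproate libraries overlapped NC in this ratio, and those of DZNep did not. Within each replicate number the ratio was higher than in NC with either compound.

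The replicate number itself moved several subunits. When libraries numbered 2 were compared with those numbered 1 within the 11 groups, 6 of the 10 subunit genes differed at a limma adjusted p under 0.05, as did 52.6% of all tested genes. None of the 6 differed by more than 2-fold, which 4.04% of tested genes did. Suz12 was lower in number 2 in 11 of 11 groups, by 0.77 on the log2 scale (SE 0.11, adjusted p 0.000123), and Mtf2 likewise in 11 of 11, by 0.59 (SE 0.09). Ezh1 was lower in 10 of 11 groups (by 0.31). Rbbp4 (0.41), Rbbp7 (0.28) and Ezh2 (0.24) were higher in number 2. Phf19 (-0.10, adjusted p 0.412) and Jarid2 (0.12, adjusted p 0.0878) did not pass. The labels do not say what the number stands for. The wide spread of Suz12 and Mtf2 within groups, described above, therefore ran in the same direction in every group.

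**Figure D5:**
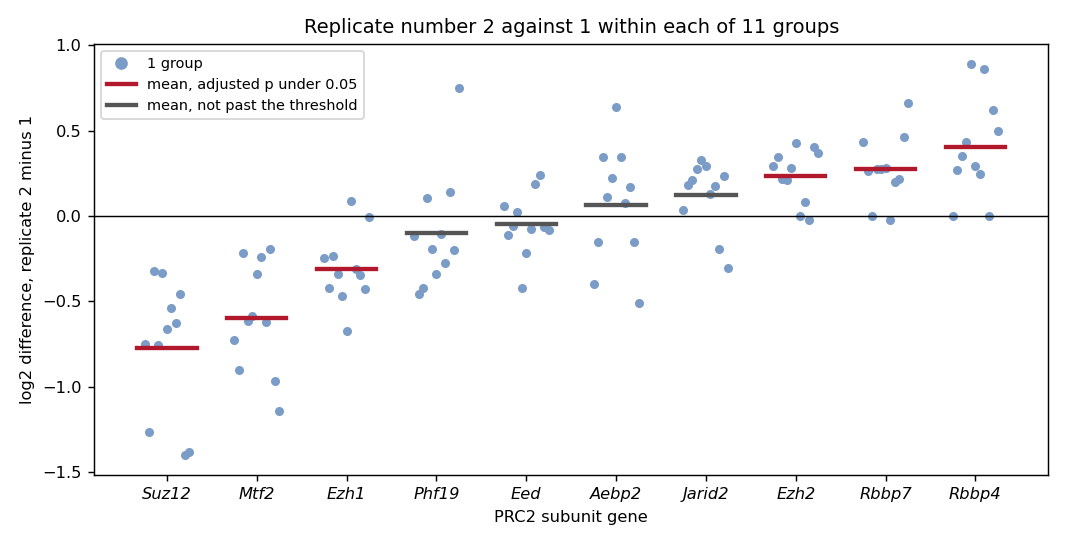
Log2 difference between replicate 2 and replicate 1 (vertical axis) for each subunit gene, with 1 point for each of the 11 groups and a bar for the mean (red where the limma adjusted p is under 0.05). Suz12 and Mtf2 lie below 0 in all 11 groups, with means of -0.77 and -0.59, and Rbbp4 has the highest mean, 0.41.

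Across the 11 group means, the log2 values of Jarid2 and Phf19 had a Pearson correlation of -0.90, those of Jarid2 and Rbbp7 one of 0.90 and those of Suz12 and Mtf2 one of 0.48. These are descriptions over 11 means that share one normalization. The genes whose group means followed those of Phf19 most closely, among 15841 genes above 0 in all libraries, were Nsmce2 (r = 0.970) and Gdpd3 (r = 0.969). For Jarid2 they were D11Wsu47e (r = 0.986) and Jmjd7 (r = 0.967). For Ezh2 they were Cog6 (0.948) and Rbm46 (0.912), for Ezh1 Marf1 (0.939) and Ppfia4 (0.937), for Eed Jade2 (0.948) and Zfp335os (0.930), and for Suz12 Atp2b1 (0.922) and Sbno1 (0.920). Mtf2 was followed by Creb1 (0.959), Aebp2 by Tubb3 (0.930) and Sart3 (0.927), Rbbp4 by Noa1 (0.961) and Ubap2 (0.960), and Rbbp7 by Echdc2 (0.967) and Ruvbl2 (0.963). No subunit was among the closest genes of another subunit.

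Regulators around the complex were examined as lists of genes. Of 7 partners and inhibitors of PRC2 (Phf1, Epop, Lcor, Lcorl, AU022751, Elob and Eloc), DZNep called 2 (11.4% of all tested genes were called) and Valproate 1 (5.28%), all higher, and the other 8 compounds 0. AU022751, the mouse counterpart of EZHIP, a protein that inhibits PRC2, had values of 157 and 154 in NC, 532 and 612 with DZNep, and 444 and 686 with Valproate. Both groups lay above NC, with log2 changes of 1.87 (SE 0.35, limma adjusted p 0.00196) and 1.82 (adjusted p 0.00542). With Bromosporine it was at 71 and 75, below NC, with no call (log2 change -1.08, adjusted p 0.0976). The comparisons share the NC libraries. Eloc, which encodes elongin C, a partner of EPOP and of ubiquitin ligases, rose with DZNep from 1361 and 2085 to 3957 and 5260 (log2 change 1.44, adjusted p 0.000739). Epop values were 9169 and 11338 in NC, and 10910 and 24710 with DZNep, without a call.

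PRC1, the second Polycomb complex, places ubiquitin on histone H2A. Of 14 genes of its canonical form, Valproate called 1 lower and 1 higher (5.28% of all tested genes in either direction). Phc1, a polyhomeotic subunit, fell from 17540 and 15301 to 6341 and 7375 (log2 change -1.26, limma adjusted p 0.00023), and Scml2 rose from 2190 and 2336 to 5334 and 4107 (1.05, adjusted p 0.000257). Of 15 genes of variant PRC1, DZNep called 1 lower (6.14% of all tested genes) and MS023 1 lower (0.973% in either direction). In either case the gene was Auts2. It fell from 1857 and 1736 to 588 and 826 with DZNep (-1.36, limma adjusted p 0.000739). With MS023 it was at 827 and 788 (-1.15, limma adjusted p 0.0174). None of 9 genes that remove H3K27me3 or H2A ubiquitin was called with any compound. These called genes were separated from NC in every library.

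Of 40 developmental genes known as Polycomb targets in ESCs, 26 were in the table and 24 were tested. DZNep called 5 higher and 4 lower (5.27% and 6.14% of all tested genes), Bromosporine 2 higher and 1 lower (3.34% in either direction), Valproate 1 higher and 1 lower (5.28%), and MS023 1 lower (0.973%), with 0 for the other compounds. The median log2 change of the 24 was 0.11 with DZNep and -0.48 with MS023, beside -0.04 and -0.01 over all tested genes. Among genes above 0 in all 4 libraries compared, the largest called rises with DZNep were in Cdkn1c, a cell cycle inhibitor (56 and 82 in NC, 354 and 456 with DZNep, log2 change 2.55, limma adjusted p 7.16e-05), and Bmp4, a signalling ligand (8 and 9 in NC, 76 and 38 with DZNep, 2.53, adjusted p 0.00157). Its largest falls were in the heart factor Nkx2-5 (51 and 50 to 3 and 11, -2.89, adjusted p 0.022) and in Msx1 (137 and 60 to 11 and 27, -2.32, adjusted p 0.00573). Bmp4 also rose with Bromosporine (69 and 99, log2 change 3.14) and Valproate (59 and 29, 2.16), and Eomes rose with Bromosporine (from a mean of 124 in NC to 331 and 298, 1.33) and with DZNep (356 and 199, 1.10, adjusted p 0.027). Sox1, a neural factor, fell from 742 and 514 to 225 and 204 with DZNep (-1.52, adjusted p 2.34e-05), to 252 and 283 with Valproate (-1.21) and to 230 and 246 with MS023 (-1.37). The DZNep values of Eomes and Sox1 are given outside the rule for named genes, after they had been seen. The target genes thus moved in both directions with DZNep, and several of them were near the lower end of the values. Some genes called higher with DZNep, Bmp4 among them, were under 10 in both NC libraries. They passed the filter only through groups in which they were higher. Such genes leave more room for a called rise than for a called fall, so the counts of rises and falls are not on equal terms.

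Markers of ESCs and of other cell types were also examined. Of 8 fibroblast markers, 7 were tested, and 3 were called higher with DZNep (5.27% of all tested genes), 3 higher with Valproate (2.73%) and 1 lower with Bromosporine (2.77%). Their summed value was 293 and 936 in NC, 1112 and 1204 with DZNep and 1043 and 1554 with Valproate, and it ran from 89 to 1014 in the libraries of the other compounds. Dcn was at 0 in both libraries of every group, and Lum in both libraries of every group except CPTH2 and Valproate. Of 10 ESC markers, 2 were called higher with DZNep (5.27% of all tested genes) and 1 with Valproate (2.73%). Bromosporine and OICR also called 1 higher each, when 3.34% and 0.388% of tested genes were called in either direction. The other compounds called 0. The summed value of the ESC markers was 214081 and 213620 in NC, 275811 and 284402 with DZNep, and 232168 and 238582 with Valproate. It was 246734 and 249225 with OICR, and 242055 and 225726 with Bromosporine, so both libraries of these 4 compounds lay above NC, as they did for Garcinol, IOX1 and UNC0379. Of 4 primitive endoderm, 5 trophoblast and 4 neural markers tested, DZNep called 1, 1 and 0 higher (5.27% of all tested genes). It called 1, 0 and 2 lower (6.14%). Bromosporine called 1 trophoblast marker lower (2.77%), and Valproate 1 neural marker lower (2.55%). MS023 also called 1 neural marker lower (0.973% in either direction), and there were no other calls. The part of these marker lists in the changes of Phf19 and Jarid2 was not tested.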

How the data were processed

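RNA-seq was analysed from 22 libraries of E14 mouse ESCs, 2 for each of 10 compounds and NC, grouped by their treatment labels and titles. Poly(A) RNA was enriched with oligo-dT beads per the labels. The submitters' processing notes name bcl2fastq, Bowtie2 2.2.5 and RSEM with mm10. The deposited values are treated as a score, since the authors normalized the read counts with the full-quantile method of EDASeq and rounded them to whole numbers, so a count test was not used. That step ties values between libraries, hides depth and removes changes common to most genes. A second deposited table held the authors' group means, which equalled the means of the first (largest difference 0) and were not used further. All 22 columns were matched to sample titles, with 0 left over.

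The tests ran in limma 3.58.1 under R 4.3.3 on log2(value + 1), in one fit of 11 group means to all libraries (11 residual degrees of freedom), with a variance trend in eBayes. Genes reaching 10 in at least 2 libraries were kept (17275 of 18487). Two-sided p-values were adjusted per contrast (Benjamini-Hochberg), and a call required an adjusted p below 0.05 and a difference of more than 2-fold. The fit was tested on simulated data with independent noise for each library. These held no shared difference between replicate numbers, so that test does not cover the replicate effect seen here. A fold change is on the log2(value + 1) scale, which understates changes of low values. The subunit genes and the lists of Polycomb regulators, targets and cell type markers were chosen with earlier results of these data known. Named were all subunits, every called regulator, the 2 largest called rises and falls among targets above 0 in the 4 libraries compared, and for each subunit the 2 genes above 0 in all libraries with the highest Pearson correlation over group means. A gene picked by this last rule is not reported here. Positions, transcript lengths and shared 31-base stretches came from GENCODE M21 (mm10), promoters from RefSeq (GRCm38.p6). Python 3.11.15, numpy 2.4.6, pandas 2.3.3 and matplotlib 3.10.9 were used for annotation and plots.

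The following were tried as well: a pseudocount of 10, no filter, a fit of the compound and NC libraries alone, the replicate number as a block, median-ratio rescaling, the average of the other 10 groups in place of NC, adjustment over all 10 contrasts, no variance trend, other transcript lengths and leaving out single libraries.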

Additional observations from a re-analysis of the deposited data

How the results depend on the processing

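Of 36 subunit changes refitted under 8 alternatives with every library kept, 275 of 288 values kept their direction and their side of the threshold. With a library left out, 128 of 144 values did so. Where only the filter, variance trend, replicate block, adjustment or set of libraries fitted changed, the log2 change was the same by construction. Phf19 with DZNep was -3.06 in each of these alternatives, which therefore tested calls and not direction. Most of the 36 changes were not called to begin with, so for them an unchanged side means only that no call appeared. The cause of the differences given here was not tested. Depth was unknown and could not be weighed. With 2 libraries per group, leaving one out leaves a lone library, which is assumed to vary like the other groups.

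The replicate numbers are shared by all groups, and the labels do not say that they mark a batch. The differences between number 2 and number 1 correlated across genes between groups with a lowest value of 0.0535 and a median of 0.196, and 20 of 22 libraries had their best match in other groups with their own number. With the replicate block, 2 subunits were called with Valproate, Suz12 being added (1.01), and 5 in place of 2 subunits passed the F test over the 11 groups. The share of all tested genes that passed this F test under the block is not given here. The other Polycomb genes called under the block were 8 with Bromosporine (3 reported), 5 with MS023 (2), 1 with OICR (0) and 9 with Valproate (5). Whatever the fold, the block gave a limma adjusted p under 0.05 to 4 subunits with DZNep, 4 with Valproate, 2 with Bromosporine and 1 with OICR. The share of all tested genes at the adjusted p alone is not given here, so these counts have no background. The totals over all genes that follow also require the fold threshold. The block changed no other call of a subunit. It gave 2606 calls over all genes with DZNep, 1487 with Valproate, 1189 with Bromosporine, 484 with MS023, 274 with OICR, 217 with IOX1, 35 with Chaetocin and 11 with UNC0379.

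When the compound and NC libraries were fitted alone, 0 subunits were called with Bromosporine, OICR and Valproate, and the other Polycomb genes called were 3 with DZNep (12 reported) and 0 with Bromosporine, MS023 and Valproate. Against the mean of the other 10 groups, 0 subunits were called with Bromosporine and OICR, the other Polycomb genes called were 5 with Bromosporine and 9 with Valproate, and Phf19 turned to 0.51 with Chaetocin, 0.86 with Garcinol, 0.87 with IOX1, 0.28 with MS023 and 0.44 with UNC0379. Ezh2 with MS023 turned to 0.13 there. Median-ratio rescaling turned Suz12 with DZNep to 0.018. With no filter, with no trend and with adjustment over all contrasts, 1 other Polycomb gene was called with OICR. The order of subunits by level kept 4 of 10 ranks without division by length and 6 with the mean transcript length.

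Leaving out single libraries gave 1 to 2 subunits called with DZNep and 0 to 1 with OICR (0 without NC replicate 1 or OICR replicate 2). The other Polycomb genes called ran from 1 to 3 with Bromosporine, 7 to 11 with DZNep, 1 to 2 with MS023 and 3 to 6 with Valproate. The lowest of each came without NC replicate 1. The same count came without NC replicate 2 for Bromosporine and MS023, and without Bromosporine replicate 2, MS023 replicate 1 and Valproate replicate 1 for their compounds. For changes whose sign turned in this way, none of them called, the ranges were -0.72 to 0.66 for Suz12 with DZNep, -0.86 to 0.28 for Mtf2 with DZNep, -0.15 to 0.32 for Ezh1 with Chaetocin, -0.18 to 0.12 for Ezh2 and -0.35 to 0.084 for Rbbp7 with MS023, -0.28 to 0.049 for Jarid2 with Chaetocin, -0.18 to 0.11 for Jarid2 with IOX1, and -0.10 to 0.35 for Phf19 with CPTH2, -0.36 to 0.062 with Garcinol and -0.31 to 0.033 with IOX1.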
